A study of Mus musculus with 32 samples.

Results

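The genes described here are 9 members of the ADAM family, which were chosen by name: *Adam1a*, *Adam2*, *Adam3*, *Adam4*, *Adam5*, *Adam18* and *Adam32*, whose proteins are known from sperm or testis, and *Adam9* and *Adam10*, which are transcribed in many tissues and served as the comparison. All 9 symbols had 1 Ensembl identifier in the GENCODE annotation. The gene table of the juvenile mice held 20368 genes and included 8 of the 9, and *Adam4* was read from the transcript table, which covered 85539 genes. The RNA came from germ cells of individual male C57BL/6J mice, which carried no named allele and received no treatment, at 8 (3 mice), 10, 12, 14, 16 and 18 dpp (days post partum, 5 mice each). These ages follow the first wave of spermatogenesis, in which the oldest germ cells pass from spermatogonia through meiotic prophase. At 8 dpp the authors collected 5 mice and kept 3. They left out the others after seeing poor concordance with the age group in cytology and RNA, likely from too few cells. A further set of 4 samples held pachytene and diplotene spermatocytes of mice 9 weeks old, enriched by sedimentation at unit gravity, and each was pooled from 6 mice. Levels are given in TPM, a transcript abundance scaled for length and for the total of each library, and changes on the scale of log2(TPM + 1).

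ADAM proteins carry a disintegrin domain and a metalloprotease domain and mostly span the cell membrane. ADAM1 and ADAM2 (fertilin alpha and beta) pair with each other in the germ cell, and ADAM3 (cyritestin) is the member that sperm need on their surface to pass into the oviduct and to bind the egg coat. ADAM9 and ADAM10 are proteases that shed the outer parts of membrane proteins. Many ADAM proteins of sperm have lost the catalytic site.

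The catalytic site is a row of 11 residues in which 3 histidines hold a zinc ion and a glutamate follows the first of them, and it is shown here because it separates the members by sequence. Each line gives the 33 bases of the most abundant transcript at this site, 5′ to 3′ from GENCODE M21 on GRCm38, with the 4 codons at the histidine and glutamate positions in capitals.
Adam10: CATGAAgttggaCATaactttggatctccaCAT
Adam9: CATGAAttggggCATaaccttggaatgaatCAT
Adam1a: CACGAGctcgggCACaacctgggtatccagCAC
Adam4: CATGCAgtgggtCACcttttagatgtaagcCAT
Adam2: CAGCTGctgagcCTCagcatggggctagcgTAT
Adam3: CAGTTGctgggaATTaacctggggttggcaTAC
Adam5: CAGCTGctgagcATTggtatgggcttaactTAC
Adam18: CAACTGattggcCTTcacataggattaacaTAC
Adam32: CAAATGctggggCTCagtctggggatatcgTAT
The coding sequences of *Adam9*, *Adam10* and *Adam1a* held all 3 histidine codons, the glutamate codon and the conserved glycine codon of the signature. *Adam4* kept the 3 histidine codons without the glutamate or the glycine. *Adam2*, *Adam3*, *Adam5*, *Adam18* and *Adam32* had no histidine codon at these positions and kept 1 of the 5 signature positions, the glycine. In *Adam9* the stretch lay at chr8:24990326-24990358 in exon 11 of 22, and in *Adam2*, *Adam3*, *Adam5*, *Adam18* and *Adam32* it also lay in exon 11, on the minus strand in each. The stretch of *Adam10* crossed from exon 9 into the following exon.

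The 5 members without a histidine codon at these positions are the ones whose RNA rose. From 8 to 18 dpp *Adam2*, *Adam3*, *Adam5*, *Adam18* and *Adam32* rose from below 1 TPM in every mouse to 18.1 TPM or more, while *Adam9* and *Adam10* fell and *Adam1a* and *Adam4* stayed below 4 TPM at every age. In the limma fit 5 of the 8 members tested were called higher at 18 dpp and 2 lower, at a Benjamini-Hochberg adjusted p under 0.05. Over all 20368 genes 31.8% were called higher and 36.3% lower, so a call alone sets these genes little apart. The median log2 fold change was 7.44 over the 6 fertility members tested and -0.09 over all genes. These 5 genes entered the test through the ages at which they are high, so the count and the median describe them and support nothing further. An F test found a difference among the 6 ages for all 8 members tested, as for 77.6% of all genes. The loss of the signature was not shared by every ADAM gene that rose: *Adam1b* and *Adam30*, described below, also rose and kept it. Nor did every ADAM gene without it rise. *Adam11*, *Adam22* and *Adam23* held it in no coding transcript and had log2 fold changes of -0.03, -1.02 and -0.11 from 8 to 18 dpp.

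Before the single genes, some facts of the libraries bear on them. Markers of Sertoli cells, the somatic cells of the tubule, were abundant in these germ cell samples: 8 markers summed to between 9817 and 10974 TPM at 8 dpp and to between 4237 and 5662 TPM at 18 dpp, with none of the 8 at 0 in any mouse. Over the same ages 8 pachytene markers went from between 35.5 and 43.9 TPM to between 2636 and 4947 TPM, and 7 spermatid markers stayed at or below 17.2 TPM, with *Prm1* at 0 in 25 of 28 mice. In such mixed samples fewer cells of a type and less RNA per cell cannot be told apart. By its cell counts the paper found germ cells to be the large majority in every sample. The marker sums measure RNA and give no share of cells. At 18 dpp mice 4 and 5 stood apart from mice 1 to 3, with *Ldhc* of the pachytene list at 1589 and 1543 TPM against 2892 to 3038 TPM. All 13 index barcodes of the 8, 10 and 12 dpp libraries were used again at 14 to 18 dpp, so libraries with the same barcode cannot have shared a pool. The labels name no pool, so whether pools followed age is unknown. A part of pool in the differences between ages was not tested.

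**Figure D1:**
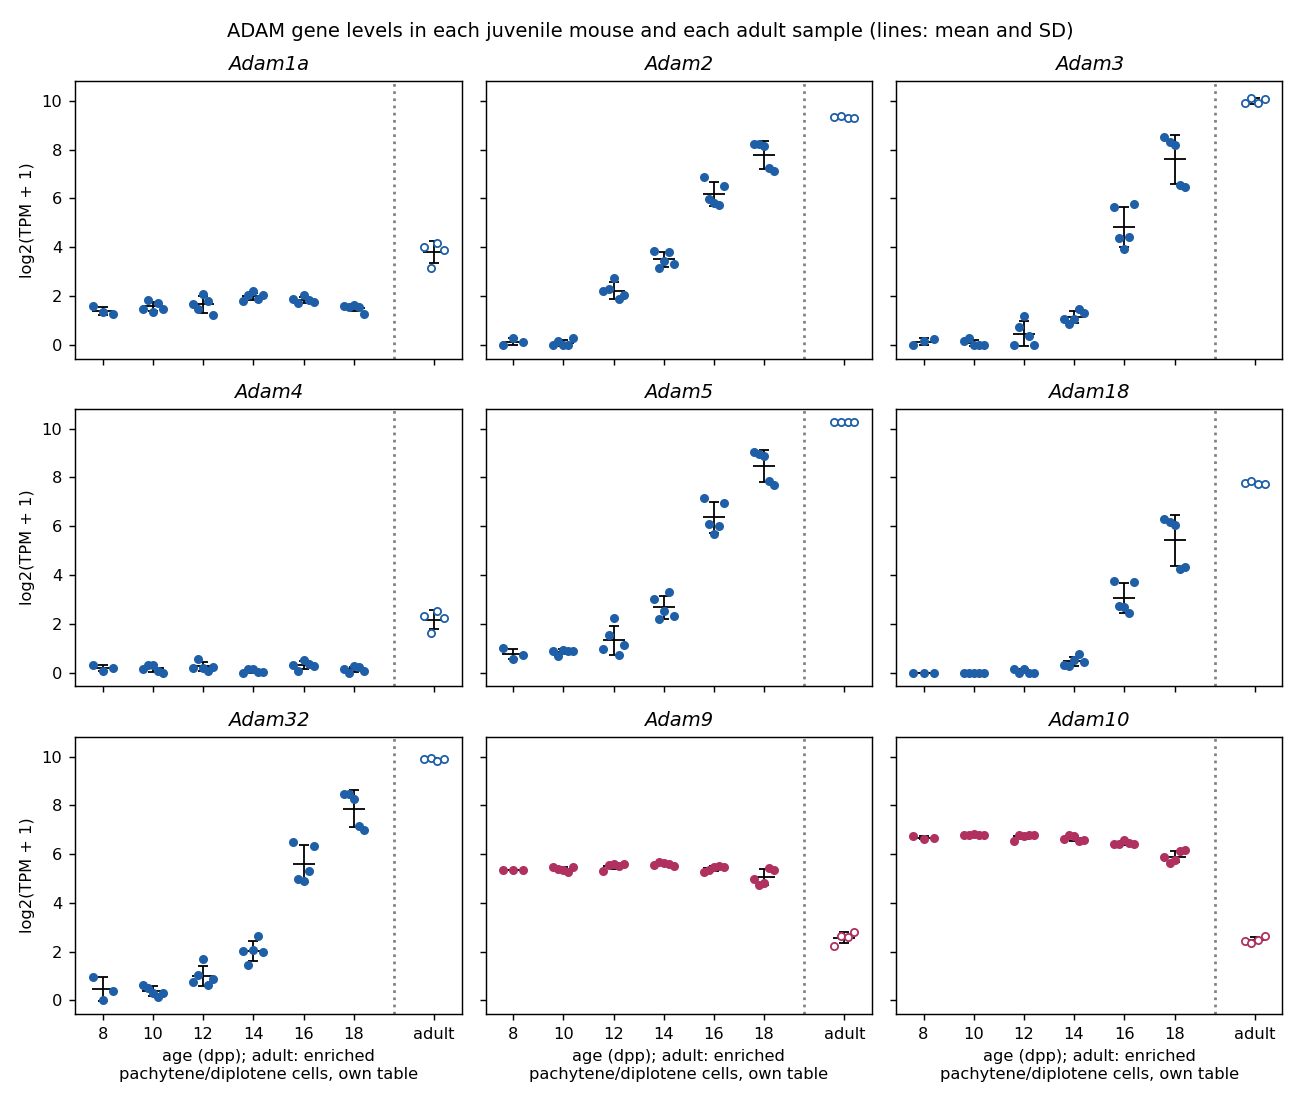
Level of each of the 9 genes in log2(TPM + 1) by age, with 1 point per mouse, 1 open point per adult sample, and lines for the mean and SD of the log values. *Adam2*, *Adam3*, *Adam5*, *Adam18* and *Adam32* climb from 12 or 14 dpp on, *Adam9* and *Adam10* sink at 18 dpp and in adult cells, and the adult values come from a table normalized apart.

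*Adam2* encodes fertilin beta and lies at chr14:66027329-66077733 on the minus strand, with 1 annotated transcript of 21 exons. Its level was 0, 0.20 and 0.09 TPM in the 3 mice of 8 dpp and between 0 and 0.20 TPM at 10 dpp. At 12 dpp the 5 mice had 3.57, 3.85, 5.73, 2.62 and 3.05 TPM, all above every younger mouse. The values were 13.2, 7.91, 9.67, 13.1 and 9.01 TPM at 14 dpp, and 116.6, 61.5, 54.8, 52.5 and 89.4 TPM at 16 dpp. At 18 dpp mice 1 to 3 had 299.6, 299.9 and 286 TPM and mice 4 and 5 had 149 and 137 TPM. No 2 neighbouring ages overlapped from 10 dpp on. The log2 fold change from 8 to 18 dpp was 7.66 (SE 0.26, adjusted p = 2.3e-17).

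*Adam2* was the first member to pass the test of a 2-day step. Between 10 and 12 dpp it rose by 2.14 (SE 0.23, adjusted p = 1.1e-07), and it was the 1 member of 8 called at this step, at which 12.0% of all genes were called higher and 9.39% lower. *Adam32* and *Adam5* had log2 fold changes of 0.63 and 0.47 at that step, neither called, and *Adam3* and *Adam18* had 0.37 and 0.06. With a pseudocount of 0.1, or with the mice of these 2 ages fitted alone, *Adam32* was called too. Between 12 and 14 dpp *Adam2* rose again by 1.29 (SE 0.23, adjusted p = 0.017), at a step where 0.157% of all genes were called higher and 0.0147% lower. That call was lost without mouse 1 or 4 of 12 dpp or mouse 1, 6 or 7 of 14 dpp (adjusted p between 0.051 and 0.086). *Adam5* at 1.35 missed the threshold there (adjusted p = 0.059), and passed it without mouse 3 of 12 dpp (0.0094), mouse 2 of 14 dpp (0.034), mouse 1 or 3 of 16 dpp (0.034 and 0.046) or mouse 4 or 5 of 18 dpp (0.048 and 0.035).

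*Adam5* and *Adam32* both encode sperm surface proteins, and *Adam5* was the highest member in 5 of 5 mice at 18 dpp. *Adam5* had 0.99, 0.48 and 0.63 TPM at 8 dpp and between 0.59 and 0.92 TPM at 10 dpp. At 12 dpp it had 0.95, 1.90, 3.70, 0.67 and 1.22 TPM, which still overlapped with 10 dpp. At 14 dpp its 5 mice lay between 3.63 and 8.80 TPM, with a median of 4.76. They had 141, 66.3, 49.7, 63.7 and 121 TPM at 16 dpp. At 18 dpp they had 529, 501, 464, 229 and 204 TPM, where the lowest mouse stood above the highest of 16 dpp. Its log2 fold change from 8 to 18 dpp was 7.73 (SE 0.35, adjusted p = 3.2e-16).

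*Adam32* rose over the same ages. Its level was 0.97, 0 and 0.32 TPM at 8 dpp, between 0.11 and 0.56 TPM at 10 dpp and between 1.75 and 5.17 TPM at 14 dpp. The 5 mice had 89.6, 30.9, 28.7, 38.8 and 79.2 TPM at 16 dpp and 354, 352, 309, 140 and 125 TPM at 18 dpp, again without overlap. The change from 8 to 18 dpp was 7.41 (SE 0.37, adjusted p = 2.2e-15). The levels of *Adam5* and *Adam32* had a Pearson correlation of 0.997 over the 28 mice, which share the course of age, and the 10 pairs among the 5 rising genes lay between 0.919 and 0.997.

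*Adam3*, the gene of cyritestin, was at or below 0.20 TPM in all mice of 8 and 10 dpp. At 12 dpp it was listed at 0 in 2 of 5 mice, with 0.66, 1.28 and 0.29 TPM in the others, and at 14 dpp it had 1.05, 0.82, 1.05, 1.74 and 1.44 TPM. The 16 dpp mice had 48.6, 19.8, 14.1, 20.3 and 54.3 TPM, all above every mouse of 14 dpp. At 18 dpp mice 1 to 3 had 367, 314 and 290.2 TPM, and mice 4 and 5 had 92.0 and 88.4 TPM. Its log2 fold change from 8 to 18 dpp was 7.48 (SE 0.41, adjusted p = 1.5e-14).

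*Adam18*, known from testis and sperm, was listed at 0 in all 8 mice of 8 and 10 dpp and in 3 of 5 mice at 12 dpp. At 14 dpp it had 0.25, 0.20, 0.41, 0.69 and 0.36 TPM. The values were 12.4, 5.56, 5.46, 4.49 and 12.0 TPM at 16 dpp and 76.6, 71.8, 65.2, 18.1 and 18.9 TPM at 18 dpp. These groups did not overlap either, and *Adam18* stayed the lowest of the 5 rising genes in every mouse of 14 to 18 dpp. The change from 8 to 18 dpp was 5.42 (SE 0.36, adjusted p = 5.4e-13) and rests on a group listed at 0, so no fold of the TPM is given.

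Most of the rise fell after 14 dpp. Between 14 and 16 dpp all 5 genes were called higher, with log2 fold changes of 3.69 for *Adam3*, 3.69 for *Adam5*, 3.58 for *Adam32*, 2.67 for *Adam2* and 2.60 for *Adam18*, and adjusted p at or below 4.5e-07. That is 5 of 8 members, with 0 called lower (1 at an unadjusted p under 0.05), where 12.7% of all genes were called higher and 11.3% lower. Between 16 and 18 dpp the same 5 genes rose by 2.78 for *Adam3*, 2.36 for *Adam18*, 2.26 for *Adam32*, 2.11 for *Adam5* and 1.62 for *Adam2*, at adjusted p at or below 4.1e-06. *Adam9* and *Adam10* were called lower. At this step 23.4% of all genes were called higher and 30.6% lower. Between 8 and 10 dpp limma called none of the 8 members, and none had an unadjusted p under 0.05, while 0.977% of all genes were called higher and 0.226% lower. Without mice 4 and 5 of 18 dpp, an alternative chosen after seeing the data, the 5 genes were called over 8 to 18 dpp with changes between 6.17 and 8.21.

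**Figure D2:**
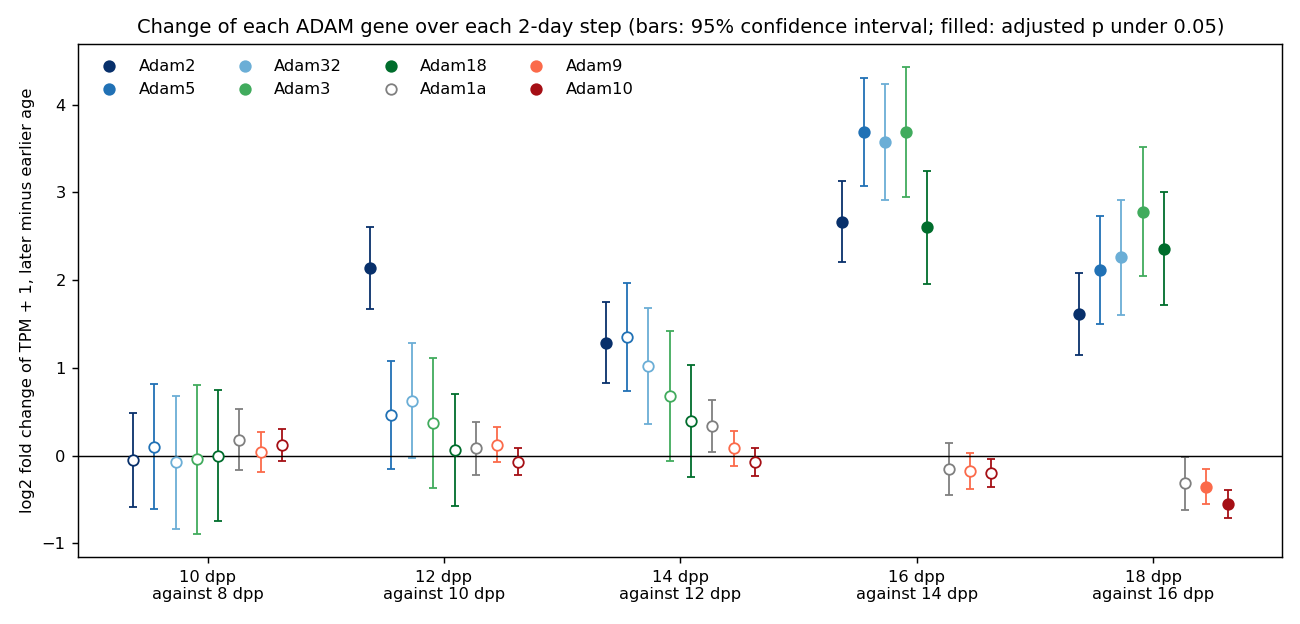
Log2 fold change of TPM + 1 over each 2-day step for 8 genes, with the 95% confidence interval from limma as bars and filled points for an adjusted p under 0.05. At 12 dpp against 10 dpp the filled point is *Adam2*, and at the last 2 steps *Adam2*, *Adam3*, *Adam5*, *Adam18* and *Adam32* are all filled and above 0.

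The 5 genes did not rise in step. At 14 dpp the mean of *Adam2* was 4.52% of its mean at 18 dpp, beside 1.47% for *Adam5*, 1.26% for *Adam32*, 0.762% for *Adam18* and 0.530% for *Adam3*. Divided by *Adam2* in the same mouse, *Adam3* came to 0.117 ± 0.031 for 14 dpp (SD, n = 5). This ratio then reached 0.398 ± 0.132 and, in the oldest juveniles, 0.911 ± 0.267 (SD, n = 5 each). The highest mouse of each age stayed below the lowest mouse of the next, at 0.160 against 0.257 and 0.607 against 0.618. The ratio of *Adam18* to *Adam2* went from 0.0358 ± 0.014 through 0.103 ± 0.019 to 0.197 ± 0.062, with 1 mouse of 18 dpp at 0.121 inside the 16 dpp range. In the adult samples the ratio of *Adam3* to *Adam2* was 1.61 ± 0.12 (SD, n = 4), from a table normalized apart. These ratios were picked after the values had been seen and are given without a test.

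**Figure D3:**
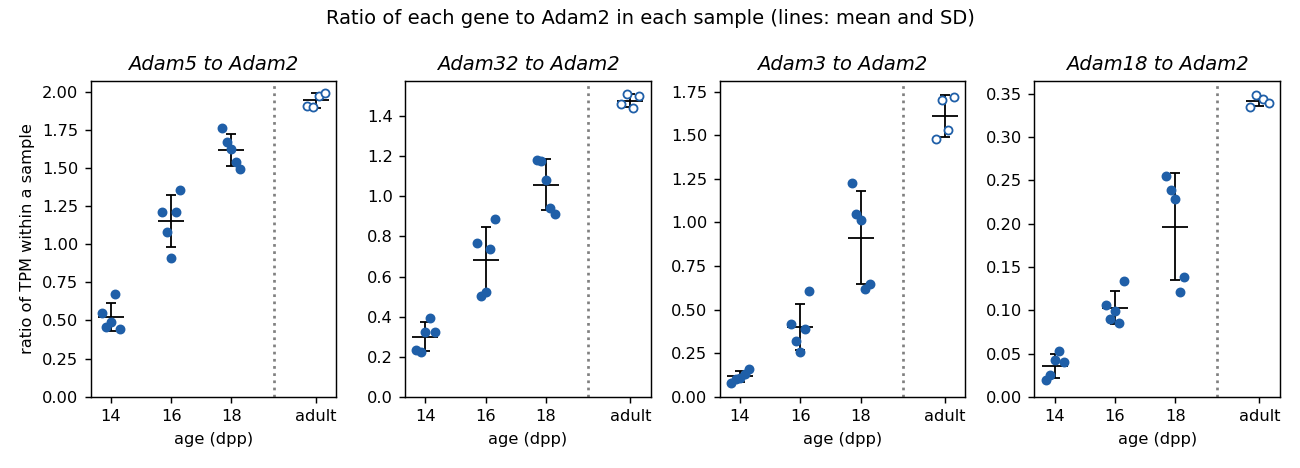
Ratio of the TPM of *Adam5*, *Adam32*, *Adam3* and *Adam18* to that of *Adam2* within each sample at 14, 16 and 18 dpp (filled points, 5 mice each) and in the 4 adult samples (open points, own table), with the mean and SD. Each of the 4 ratios has a higher mean at each later age, and that of *Adam3* goes from 0.117 at 14 dpp to 0.911 at 18 dpp.

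*Adam9* and *Adam10* went the other way. *Adam10* lies at chr9:70678997-70780229 on the plus strand. It was the highest of the 9 genes in every mouse up to 14 dpp, with 106.5, 98.0 and 99.5 TPM at 8 dpp and between 108.9 and 111.5 TPM at 10 dpp. It had 84.3, 84.3, 93.8, 86.9 and 83.4 TPM at 16 dpp and 57.5, 48.3, 52.5, 68.6 and 70.0 TPM at 18 dpp, below every mouse of 8 dpp. Its log2 fold change from 8 to 18 dpp was -0.78 (SE 0.09, adjusted p = 1.7e-08), and between 16 and 18 dpp it fell by 0.55 (SE 0.08, adjusted p = 3.6e-06).

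*Adam9* was lower and changed less. It had 40.1, 39.2 and 39.5 TPM at 8 dpp, between 45.2 and 49.8 TPM at 14 dpp, and 30.5, 25.5, 27.0, 42.7 and 39.7 TPM at 18 dpp, so mouse 5 of that age lay within the range of 8 dpp and mouse 4 above it. The change between 16 and 18 dpp was -0.36 (SE 0.10, adjusted p = 0.0034). The fit called it lower from 8 to 18 dpp as well, at -0.28 (SE 0.11, adjusted p = 0.030). The call from 8 to 18 dpp was lost on leaving out any mouse of 8 dpp or mouse 1, 2 or 3 of 18 dpp (adjusted p between 0.057 and 0.10), and with median-of-ratios scaling (-0.11, adjusted p = 0.30). This scaling moved the median of all genes from -0.09 to 0.05, and quantile normalization moved it to -0.26, with *Adam9* at -0.36. Without mice 4 and 5 of 18 dpp *Adam9* had -0.50 (adjusted p = 3.8e-06). The summed levels of 3 marker lists were lower at 18 dpp than at 8 dpp, as those of *Adam10* were. The sums of the macrophage, Leydig cell, leptotene and zygotene, pachytene and spermatid lists were not lower. The 8 Sertoli markers are given above, and 7 of them had a lower mean at 18 dpp, while *Rhox5* went from 36.6 to 68.4 TPM. The sum of 6 spermatogonium markers went from between 1077 and 1215 TPM to between 482 and 683 TPM, and that of 5 peritubular markers from between 1051 and 1160 TPM to between 524 and 1034 TPM. In adult samples these sums were at most 33.6 and 10.7 TPM. The sum of 5 macrophage markers went from between 30.5 and 41.55 TPM to between 50.98 and 99.71 TPM. For 6 Leydig cell markers it went from between 173.27 and 197.4 TPM to between 196.67 and 544.85 TPM, with overlap. The adult macrophage sums were at most 4.35 TPM, and the adult Leydig cell sums lay between 213.5 and 281.22 TPM. At 18 dpp mice 4 and 5 had the highest *Clu* (3246 and 3345 TPM beside 2582 to 2700 TPM) and *Wt1* of the Sertoli list, as they had the highest *Adam9* and *Adam10*. The other Sertoli markers, *Rhox5* among them, are not given by mouse here, so these 2 do not stand for the list. The part of these cell types in the levels of both genes was not tested.

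Set against the mean of *Adam9* and *Adam10* within each mouse, the rises were larger. From 8 to 18 dpp the relative log2 change was 8.25 (SE 0.40) for *Adam5*, 8.19 (SE 0.33) for *Adam2*, 8.00 (SE 0.47) for *Adam3*, 7.93 (SE 0.42) for *Adam32* and 5.94 (SE 0.43) for *Adam18*, with limma adjusted p at or below 3.5e-12. *Adam1a* changed by 0.66 on this scale (SE 0.20, adjusted p = 0.0063), so 6 of 6 fertility members tested were called higher. All of them but *Adam1a* entered the test through the ages at which they are high. The count therefore describes them and supports nothing further. As both reference genes fell, 50.7% of all genes were called higher and 13.4% lower here, and the median over all genes was 0.43. Against *Adam9* alone *Adam1a* had 0.41 (adjusted p = 0.11).

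*Adam1a* encodes the partner of ADAM2 in the endoplasmic reticulum, and its transcript of 3496 bases is a single exon on chromosome 5. The annotated gene spans 26907 bases and overlaps *Mapkapk5* and 3 other genes. It had 2.00, 1.51 and 1.38 TPM at 8 dpp and 2.02, 1.93, 2.07, 1.95 and 1.40 TPM at 18 dpp, and the groups overlapped. Its highest mean was 2.98 ± 0.43 TPM at 14 dpp (SD, n = 5), where the range was 2.49 to 3.61 TPM. The change from 8 to 18 dpp was 0.13 (95% confidence interval -0.22 to 0.48, adjusted p = 0.51), and the F test over the 6 ages was called (adjusted p = 0.012). Of the 3447 windows of 50 bases in this transcript, 51.9% were also found in transcripts of other genes, 1066 of them in *Adam1b*, so reads of both genes may have been divided between them. *Adam4*, an intronless gene at chr12:81419443-81421946, stayed between 0 and 0.46 TPM in the 28 mice and did not reach the level for testing. Without that filter its change from 8 to 18 dpp was -0.05 (SE 0.10, adjusted p = 0.82), and 17.4% of its windows were shared with other genes. The other 7 members shared no window of this length with GENCODE M21 transcripts of other genes. The NONCODE and piRNA precursor transcripts, to which the authors also aligned the reads, were not searched.

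Of the 9 genes 5 stand in a row on the minus strand of chromosome 8 (GRCm38): *Adam18*, *Adam3*, *Adam5*, *Adam32* and *Adam9*, over 414682 bases at chr8:24602246-25016927. The gaps between them were 2469, 1240, 11770 and 806 bases. The first 4 rose from 8 to 18 dpp. The fifth, *Adam9*, was called lower, a call that was lost in 9 of 40 alternatives. Between *Adam9* and the start of *Adam32* lay 806 bases. *Adam32* went from a mean of 0.43 to 256 TPM, and *Adam9* from 39.6 to 33.1 TPM. Within 200000 bases of the row, a distance chosen after seeing the values, 4 other genes were in the gene table. *Tcim* had 0.83, *Tm2d2* 1.11, *Plekha2* -0.81 and *Tacc1* -0.23, all called. Over all genes 31.8% were called higher and 36.3% lower, so these calls set the neighbours little apart. *Tm2d2*, next to *Adam9* on the other strand, went from 44.9 to 98.2 TPM. *Ido1* and *Ido2*, next to *Adam18*, had means at or below 0.235 TPM at 8 dpp, at 18 dpp and in adult cells.

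**Figure D4:**
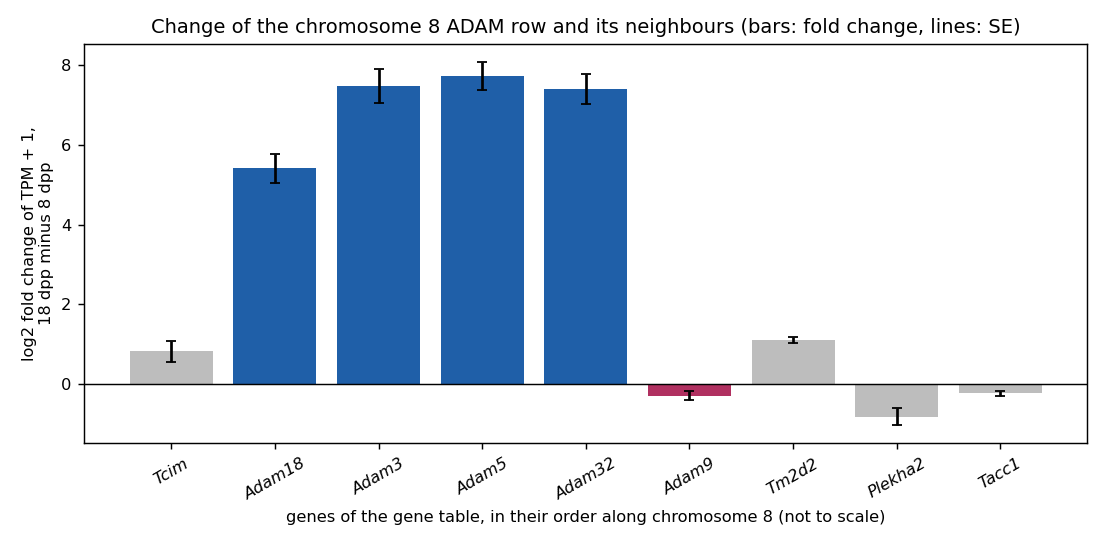
Log2 fold change of TPM + 1 from 8 to 18 dpp for the genes of the gene table in their order along chromosome 8 (spacing not to scale), with SE as lines, the rising ADAM genes in blue, *Adam9* in red and other genes in grey. The 4 blue bars lie between 5.42 and 7.73, and *Adam9* at -0.28 follows directly on *Adam32*.

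The transcripts showed which annotated forms carried the rises. Of the members' transcripts tested with limma, 18 were called higher at 18 dpp than at 8 dpp and 1 lower, beside 14.8% and 15.6% of the 67557 transcripts of all genes. All 18 were forms of *Adam2*, *Adam3*, *Adam5*, *Adam18* and *Adam32*. These genes were below 1 TPM in every mouse of 8 dpp, so their transcripts entered the test through later ages. The count describes them and supports nothing further. ENSMUST00000033958 of *Adam3*, with 22 exons, held 78.5% ± 4.5 of the gene's TPM at 18 dpp (SD, n = 5). *Adam32* had 86.5% ± 0.9 in ENSMUST00000121438. *Adam5* was divided between 2 coding transcripts of 21 exons, ENSMUST00000050300 with 59.6% ± 4.2 and ENSMUST00000118419 with 38.3% ± 4.6, which rose by 7.58 and 7.09. In *Adam18* the coding ENSMUST00000033957 held 73.0% ± 9.7, and 26.4% ± 8.6 went to ENSMUST00000173833, which is annotated as a target of nonsense-mediated decay. Both rose, by 4.96 (SE 0.33) and 3.58 (SE 0.45).

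Of *Adam10*, ENSMUST00000067880 held 94.1% ± 7.0 at 18 dpp and was the transcript called lower, at -0.76 (SE 0.09, adjusted p = 1.8e-07). Without mouse 5 of 18 dpp the count called lower over the transcripts of all members was 2. The *Adam9* transcripts ENSMUST00000084035 (80.8% ± 9.2) and ENSMUST00000084032 (19.2% ± 9.2) were not called, at -0.30 (adjusted p = 0.17) and 0.01. The study measured *Adam3* also by RT-PCR, and its primers are shown because they mark which of these forms that assay reads. They match exon 14 of 22, at chr8:24695311-24695330 and chr8:24695251-24695270.
Adam3 forward primer: gaaagaggacgcctatgcag
Adam3 reverse primer: gcacagccttcagtttctcc
Both primers were found in 3 of the 10 *Adam3* transcripts of the table, which together held 88.8% ± 2.6 of its TPM at 18 dpp.

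The order of levels changed with age. At 8 dpp *Adam10* (101.3 ± 4.5 TPM) and *Adam9* (39.6 ± 0.4 TPM) were the members above 2 TPM. At 16 dpp *Adam5* (88.4 ± 40.1 TPM), *Adam10* (86.5 ± 4.3 TPM) and *Adam2* (74.9 ± 27.5 TPM) overlapped in their range of mice. At 18 dpp the order was *Adam5* (385 ± 156 TPM), *Adam32* (256 ± 114 TPM), *Adam2* (234 ± 84 TPM), *Adam3* (230.3 ± 131 TPM), *Adam10* (59.4 ± 9.6 TPM), *Adam18* (50.1 ± 29.1 TPM), *Adam9* (33.1 ± 7.7 TPM), *Adam1a* (1.87 ± 0.27 TPM) and *Adam4* (0.106 ± 0.08 TPM). *Adam5* was above *Adam32* in 5 of 5 mice and *Adam3* above *Adam10* in 5 of 5. *Adam32* was above *Adam2* in 3 of 5 mice, and *Adam2* above *Adam3* in 2 of 5. This followed the split of the mice at that age. In mice 1 to 3 *Adam32* and *Adam3* both stood above *Adam2*, and in mice 4 and 5 both stood below it. The order of these means therefore did not hold in every mouse. *Adam18* stood above both *Adam10* and *Adam9* in each of mice 1 to 3, at 76.6, 71.8 and 65.2 TPM. In mice 4 and 5 it stood below both, at 18.1 and 18.9 TPM. The lowest *Adam10* (48.3 TPM) stood above the highest *Adam9* (42.7 TPM).

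In the adult pachytene and diplotene samples *Adam5* had 1234, 1249, 1223 and 1255 TPM, and ranked 73 of the 46117 genes of that table with a TPM above 0. *Adam3* had 959, 1120, 949 and 1083 TPM (rank 93) and *Adam32* 947, 994, 892 and 946 TPM (rank 104). *Adam2* lay between 619 and 658 TPM and *Adam18* between 213 and 229 TPM. In each of the 4 samples the order was *Adam5*, *Adam3*, *Adam32*, *Adam2*, *Adam18* and *Adam1a*. At 18 dpp the mean of *Adam3* was below those of *Adam32* and *Adam2*. By mouse, *Adam3* already stood above *Adam2* in mice 1 to 3 of that age, and above *Adam32* in mouse 1.

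*Adam9* had 3.76, 5.25, 5.14 and 5.99 TPM in the adult samples and *Adam10* 4.44, 4.18, 4.61 and 5.23 TPM, so these neighbours did not differ beyond their spread. The 8 Sertoli markers summed to between 348.5 and 509 TPM there, and the 8 pachytene markers to between 10407 and 10609 TPM. *Adam1a* had 15.1, 7.84, 16.8 and 13.8 TPM and *Adam4* 3.94, 2.04, 4.78 and 3.75 TPM. The 7 spermatid markers reached 881 to 1204 TPM in these samples, with none of the 7 at 0. Their part in the levels of *Adam1a* and *Adam4* was not tested. Age, cell separation and table all differ between these samples and the juvenile mice, so levels are set side by side without a test.

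The rest of the family was described from lists drawn up from general knowledge. Of 15 further ADAM genes of testis or sperm, 13 were mapped and 2 reached the level for testing. Both were near 0 at 8 dpp and reached that level through the later ages, so that they rose was fixed by the filter, and 31.8% of all genes were called higher. *Adam1b*, the form of ADAM1 that goes to the sperm surface with ADAM2, had 0 to 0.24 TPM at 8 dpp and 77.1, 72.4, 61.1, 22.6 and 19.1 TPM at 18 dpp, a log2 fold change of 5.36 (SE 0.33, adjusted p = 1.2e-13). *Adam30* had 0 to 0.10 TPM at 8 dpp and 40.0, 32.6, 34.8, 10.6 and 8.73 TPM at 18 dpp, a change of 4.39 (SE 0.36, adjusted p = 2.4e-11). The zinc signature was found in a coding transcript of 10 of the 13 mapped genes, *Adam1b* and *Adam30* among them.

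Of 12 ADAM genes of other tissues 8 were tested, and 4 were called lower and 0 higher from 8 to 18 dpp by limma, beside 36.3% lower and 31.8% higher over all genes. The largest falls were those of *Adam22* at -1.02 (SE 0.20, adjusted p = 6.6e-05) and *Adam12* at -0.60 (SE 0.22, adjusted p = 0.019). *Adam11* and *Adam23* at the other end had -0.03 and -0.11 and were not called. With median-of-ratios scaling 2 were called lower. The median of the 8 was -0.27. The zinc signature was found in a coding transcript of 7 of the 12 genes, and *Adam11*, *Adam22* and *Adam23* were among those without it.

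**Figure D5:**
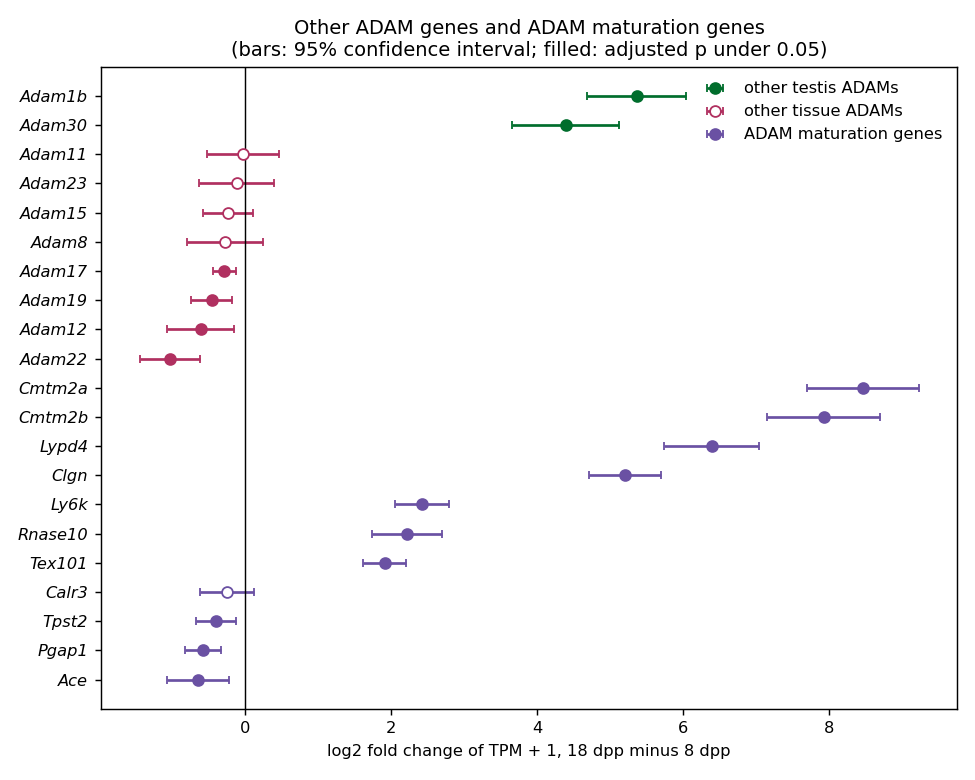
Log2 fold change of TPM + 1 from 8 to 18 dpp for the tested genes of the lists of other ADAM genes and of ADAM maturation genes, with the 95% confidence interval from limma as bars and filled points for an adjusted p under 0.05. *Adam1b*, *Adam30* and 7 maturation genes lie to the right of 0, and the ADAM genes of other tissues at or left of 0.

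Sperm ADAM proteins mature with the help of chaperones in the endoplasmic reticulum and of other proteins. Listed here were 15 genes whose loss is known to affect the processing, transport or surface presence of these proteins. Of 11 tested, 7 rose and 3 fell from 8 to 18 dpp, where 31.8% of all genes were called higher and 36.3% lower. Among those that rose, *Cmtm2a*, *Cmtm2b*, *Rnase10* and *Lypd4* were below 3 TPM at 8 dpp and entered the test through later ages, so the count and the median of 2.22 (-0.09 over all genes) are descriptions. *Cmtm2a* and *Cmtm2b*, whose loss removes ADAM3 from sperm, changed most, by 8.46 (SE 0.37) and 7.92 (SE 0.38), at adjusted p of 2.2e-16 and 9.1e-16. *Cmtm2b* was listed at 0 in the 3 mice of 8 dpp and had a mean of 271 TPM at 18 dpp. The lowest changes were those of *Ace* at -0.64 (adjusted p = 0.0071) and *Pgap1* at -0.58 (adjusted p = 0.00012).

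The other maturation genes are named with their values seen. *Lypd4* at 6.39, *Clgn*, the gene of the chaperone calmegin, at 5.20, *Ly6k* at 2.42, *Rnase10* at 2.22 and *Tex101* at 1.91 rose. *Clgn* and *Tex101* already had means of 10.7 and 248 TPM at 8 dpp, when *Adam2* and *Adam3* were at or below 0.20 TPM. *Tpst2* fell by 0.39, and *Calr3*, the gene of the chaperone calsperin, had -0.24 and was not called (adjusted p = 0.24). *Pdilt*, *Prss37*, *Pmis2* and *Ovch2* did not reach the level for testing. *Pdilt*, another chaperone of ADAM3, had a mean of 0.302 TPM at 18 dpp and 22.0 TPM in the adult samples, and *Prss37* was listed at 0 in all 28 mice and had 14.0 TPM in the adult samples.

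Among 14896 genes with a symbol, those most like a member over the 28 mice were named by their Pearson correlation of log2(TPM + 1). For *Adam5* these were *Mroh2b* (0.998), *Atp8b3* (0.998) and *Prps1l1* (0.997), and for *Adam32* they were *Mroh2b* (0.998), *Pabpc2* (0.997) and *Shcbp1l* (0.997). For *Adam10* they were *Cpt1a* (0.978), *Sumf1* (0.976) and *Ywhab* (0.974), and for *Adam9* *Bag2* (0.915), *Tmem185a* (0.913) and *Wfs1* (0.911). The mice share their age, library scaling and the mixture of cells, so these values are descriptions of a common course.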

How the data were processed

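Poly-A RNA of 28 juvenile mice and 4 adult samples was sequenced by the authors, aligned with Bowtie 1.0.0 to a mouse mm10 transcriptome and quantified with RSEM 1.2.8. Both the transcript table of the juveniles and the table of the adult samples were deposited as TPM. The juvenile gene table was deposited as a score, exp(log2(TPM + 1)) - 1, and was converted back to TPM, after which members differed from the summed transcripts by at most 0.01 TPM. TPM keep no read counts, so depth and counting error are unknown, and no source used here states whether strand was used. The substage columns of the authors were not used. Members, gene lists and tests were chosen with earlier results of these data known.

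The design had assumed TPM in each table, and the same test was kept after conversion. Genes reaching 3 TPM in 1 mouse or more (20368) and transcripts reaching 1 TPM were fitted on log2(TPM + 1) with limma 3.58.1 in R 4.3.3, all 6 ages in 1 model, prior variance following mean expression, and p-values adjusted by Benjamini-Hochberg over all features within each contrast. The contrasts share mice: 18 dpp enters 2 of them, and neighbouring steps share an age. Each mouse was 1 sample, numbered as labelled. Named genes were the members, the 2 highest and 2 lowest changes of each list (all where 6 or fewer were tested), the 3 genes most correlated with *Adam5*, *Adam32*, *Adam9* and *Adam10*, and transcripts with at least 10% of a gene. Coding sequences were aligned with MAFFT 7.526 after translation with Biopython 1.88 in Python 3.11.15. The fits were tested on simulated data. Alternatives covered the pseudocount, filters, scaling, prior variance, samples, reference gene and a replicate block.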

Additional observations from a re-analysis of the deposited data

Results flagged for a closer look

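Among 53 sets of 4 or 5 samples of 1 gene at 1 age, 2 held a value far from the others, and chance sets apart about 1 in 20. *Adam1a* in mouse 5 of 18 dpp had 1.40 TPM, beside 1.93 to 2.07 TPM in the other 4 mice. *Adam5* in mouse 2 of 10 dpp had 0.59 TPM, beside 0.85 to 0.92 TPM in the others.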

How the results depend on the processing

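The 5 rising genes kept their call from 8 to 18 dpp, from 14 to 16 dpp and from 16 to 18 dpp under every alternative run for these steps, and *Adam10* kept its call from 8 to 18 dpp and from 16 to 18 dpp. From 8 to 18 dpp their changes lay between 3.91 (*Adam18*, pseudocount 3) and 10.27 (*Adam2*, pseudocount 0.1), so the sizes depend on the pseudocount. No called change turned its direction. The 2 members called lower from 8 to 18 dpp became 1 without the filter on low values, with median-of-ratios factors and with only the 2 ages compared, and 1 to 2 when each mouse was left out in turn. Between 10 and 12 dpp 2 members were called higher with a pseudocount of 0.1 and with only the 2 ages compared. Between 12 and 14 dpp 0 were called with a pseudocount of 3, without the filter, with only the 2 ages compared and with mice 1 to 3 only, 2 without mice 4 and 5 of 18 dpp, and 0 to 2 when each mouse was left out, and with a pseudocount of 0.1 *Adam5* was called in place of *Adam2*. The members called lower between 14 and 16 dpp went from 0 to 2 with only the 2 ages compared, with mice 1 to 3 only and without mice 4 and 5 of 18 dpp, and 0 to 1 when each mouse was left out (*Adam10*, without mouse 6 of 14 dpp, mouse 3 of 16 dpp or mouse 2, 4 or 5 of 18 dpp). Between 16 and 18 dpp 1 was called lower with only the 2 ages compared, and 3 with *Adam1a* added under quantile normalization (-0.45, adjusted p = 0.011), with one prior variance (0.039), and without mouse 3 or 5 of 12 dpp (0.0496 and 0.0483). Of the ADAM genes of other tissues 2 were called lower with median-of-ratios factors, and of the members' transcripts 2 were called lower without mice 4 and 5 of 18 dpp and 1 to 2 when each mouse was left out. Fitting 2 ages alone leaves fewer samples; the cause of the other changes was not tested.

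With the mouse number as a replicate block, 0 members were called higher between 12 and 14 dpp and 1 was called lower between 14 and 16 dpp (*Adam10*), and no other count of members moved by over 1.5 times. The numbers do not pair the mice: over 57 pairs with the same number at different ages the median correlation of deviations was 0.0147, 3 were over 0.1, and 6 of 26 mice were closest to their own number. Over all genes, the count called between 12 and 14 dpp was 35, between 0 with the block and 107 without mice 4 and 5 of 18 dpp, and between 2 and 129 with each mouse left out. Between 8 and 10 dpp it was 245, between 129 with only the 2 ages compared and 398 without mice 4 and 5 of 18 dpp, and between 106 and 288 with each mouse left out. TPM limit the low values: 1 TPM is not a known number of reads here.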

Other observations

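The 11 mapped ADAM genes of testis or sperm that were too low for a test in juvenile mice were detected in the adult samples. Their adult means ran from 1.52 TPM for *Adam26b* to 9.80 TPM for *Adam24*, while at 18 dpp no mean was above 0.172 TPM. *Adam6a* had 5.84, 3.04, 7.46 and 6.83 TPM in adult samples 1 to 4 and was listed at 0 in all mice of 18 dpp, and *Adam20* had 6.07, 4.17, 10.6 and 8.86 TPM.

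Sample 2 was the lowest of the 4 adult samples for *Adam1a*, *Adam4*, *Adam10* (0.878 of the mean of the other 3), *Adam6a*, *Adam6b*, *Adam20*, *Adam24* and *Adam26a*, genes named after its values were seen. The level of *Adam1a* in it was 0.514 of the mean of the other 3, and that of *Adam4* 0.491. The spermatid markers *Acrv1* (0.476), *Spaca1* (0.487), *Catsper3* (0.589), *Tnp1* (0.751), *Tnp2* (0.803) and *Prm2* (0.844) were also lowest in sample 2, whereas *Prm1* (0.876) was not. *Adam2*, *Adam3*, *Adam5*, *Adam18* and *Adam32* lay between 1.01 and 1.12 of the mean of the others in that sample. The part of spermatids in these differences was not tested.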
